A study of Mus musculus with 23 samples.

Results

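The miRNAs miR-190a, miR-149 and miR-676 were followed as 5 mature strands, mmu-miR-190a-5p, mmu-miR-190a-3p, mmu-miR-149-5p, mmu-miR-676-3p and mmu-miR-676-5p, out of 1218 mature miRNAs counted in mouse liver. They were chosen by their counts, on nominal differences between mice of the omega 3 lineage and mice of the control lineage that ate a high-fat diet, with both strands of a hairpin kept for miR-190a and miR-676. The difference between these lineages is therefore what selected them, and it is given below as a description without a test. All 5 were found among the counted miRNAs, and 4 of them passed the filter on low counts that left 386 miRNAs for testing. The strand below the filter was miR-190a-3p.

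Livers came from 23 male C57bl/6J mice of the F3 generation, whose age is not given in the sources used here. All were bred on a growing diet with 1% of added oil, which was a high-oleic sunflower oil in the control lineage and a fish oil rich in EPA in the omega 3 lineage. The reference group held 8 control-lineage mice on a low-fat diet, in which fat gave 10% of the energy. The HFoleic group held 8 control-lineage mice that ate a diet high in fat and sucrose for 17 weeks, in which fat gave 45% of the energy. The HFepa group held 7 omega 3 lineage mice on the same high-fat diet. No omega 3 lineage mice on the low-fat diet were analysed here, so the lineages were compared under the high-fat diet alone. One small RNA library was made per mouse, and the labels do not say whether mice of a group shared a litter or cage.

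A miRNA is cut from a hairpin precursor, first by Drosha in the nucleus and then by Dicer in the cytoplasm, which leaves a duplex of the 5p and the 3p strand. One strand is usually kept by an Argonaute protein and guides it to mRNAs that pair with its seed, bases 2 to 8, whereas the other strand is mostly degraded. A miRNA gene inside an intron can be transcribed together with its host gene, so the 2 strands of 1 hairpin share a transcript but not a fate.

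The mature sequences are shown because the seed sets which mRNAs a strand can pair with, and because they show which strands could be confused in counting. They are given 5′ to 3′ from RefSeq on GRCm38.p6, with the seed in capitals, for the 4 members that the sequence source lists, and the seed paralog miR-190b-5p is shown beside miR-190a-5p.
miR-190a-5p: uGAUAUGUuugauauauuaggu
miR-190b-5p: uGAUAUGUuugauauuggguug
miR-190a-3p: aCUAUAUAucaagcauauuccu
miR-149-5p: uCUGGCUCcgugucuucacuccc
miR-676-3p: cCGUCCUGagguuguugagcu

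The 4 members have 4 different seeds. Of the 1218 counted miRNAs, 1045 had a mature sequence in RefSeq, and among these miR-190a-5p shared its seed with miR-190b-5p only, while miR-190a-3p, miR-149-5p and miR-676-3p shared theirs with 0. Aligned without gaps and counted from 1 at the 5′ end, miR-190a-5p and miR-190b-5p are identical over their first 15 bases and differ at 7 of 22, namely A16U, U17G, U18G, A19G, G20U, G21U and U22G. A read truncated within the shared bases could come from either. The study selected its cDNA by size, and read lengths were not examined here, so how far this affects the split of counts is not known. The GC content is 22.7% for miR-190a-5p, 60.9% for miR-149-5p and 57.1% for miR-676-3p, against a median of 50% over the 1045 sequences.

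All 3 hairpins lie in introns of protein-coding genes, on the strand of the host gene, and none of the annotated host transcripts that span them has an exon over the hairpin. The miR-190a hairpin lies at chr9:67236660-67236726 on the minus strand of GRCm38, in Tln2, which encodes talin 2, a protein that links integrins to the actin cytoskeleton. The miR-149 hairpin lies at chr1:92850378-92850443 on the plus strand, in Gpc1, which encodes glypican 1, a heparan sulfate proteoglycan of the cell surface. The miR-676 hairpin lies at chrX:100381097-100381185 on the plus strand, in Eda, which encodes ectodysplasin A, a ligand of the TNF family, 269 bases upstream of the nearest exon. No other annotated miRNA gene lies within 10 kb of any of the 3 hairpins, so each strand was counted from a hairpin that stands alone. The mRNAs of the host genes were not analysed here.

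The members cover a wide range of abundance. Levels are given as CPM, the count scaled to a common library size after TMM normalization. Over all 23 libraries, miR-149-5p held 124.0 CPM on average and ranked 119 among the 1218 miRNAs, and miR-676-3p held 121 CPM and ranked 120. The levels of miR-676-5p (28.3 CPM) and miR-190a-5p (13.0 CPM) were lower, with ranks 200 and 241. The lowest member was miR-190a-3p with 0.696 CPM, rank 472, and 84 counts in the whole series. These strands are minor liver miRNAs. The hepatocyte miRNAs miR-122-5p, miR-192-5p and miR-194-5p summed to between 112892 and 265675 CPM per library, and all 3 were present in every group.

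The libraries held 5242218 to 8139344 counts in the reference group, 4340903 to 7220112 in HFoleic and 3725432 to 4947990 in HFepa, so the HFepa libraries were the shallowest as a group. Within groups, all 77 pairs of libraries differed by more than sampling noise, the smallest chi-square per degree of freedom being 33.5. Libraries are named by the number in the sample title, which is 1 to 8 for reference, 16 to 22 for HFepa, and 9 to 15 and also 23 for HFoleic. Reference library 3 stood apart, with the lowest hepatocyte sum (112892 CPM, next 206827 CPM) and the highest sums of stellate cell and fibroblast (42501 CPM), leukocyte (2923 CPM) and biliary (1094 CPM) miRNAs. Reference library 4 held the highest sum of muscle and heart miRNAs (219 CPM, next 12.4 CPM), and reference library 5 that of pancreas miRNAs (2021 CPM, next 57.4 CPM). Between high-fat and reference mice, edgeR called the 1 tested muscle miRNA, the 1 tested pancreas miRNA, 1 of 5 leukocyte and 1 of 5 biliary miRNAs, and 0 of the 3 hepatocyte, 4 red cell, 5 stellate cell and fibroblast and 1 nervous tissue miRNAs tested. The call that rests on the reference group is also given without libraries 3, 4 and 5.

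**Figure D1:**
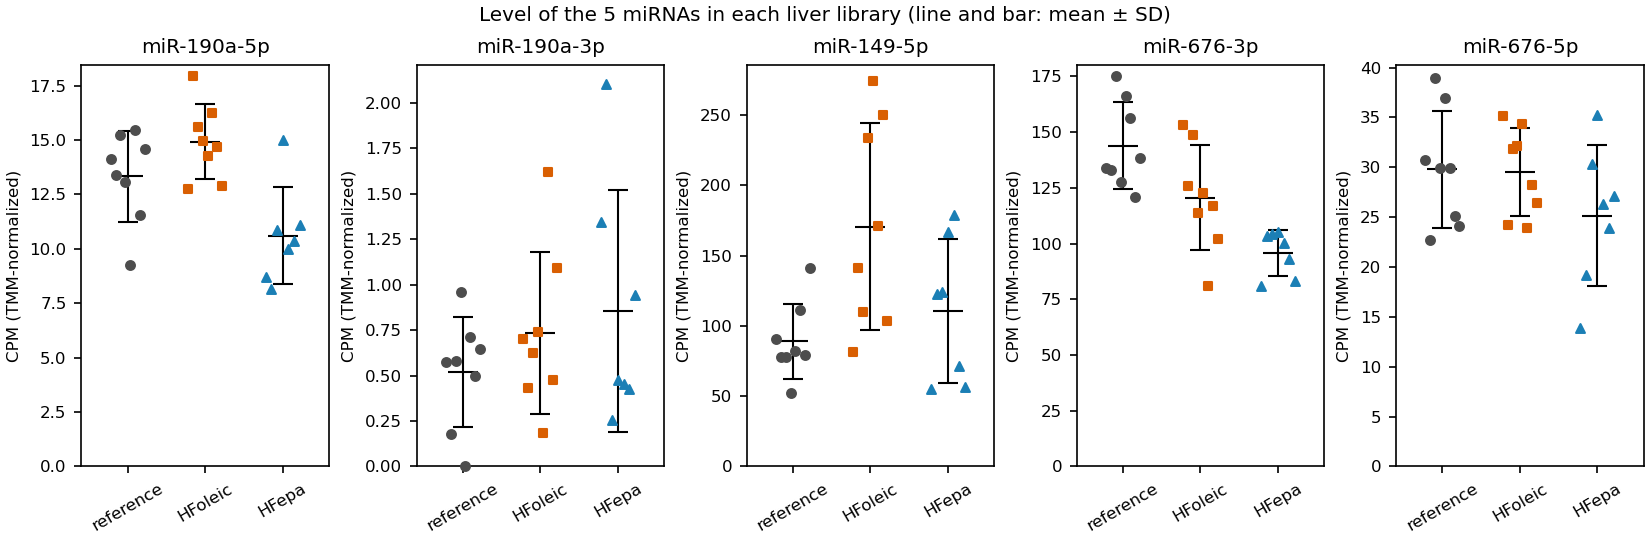
Each panel plots 1 miRNA, with CPM on the vertical axis from 0 and the groups on the horizontal axis. Points are single libraries in order of their number, and the line and bar give the mean ± SD (n = 8, 8 and 7). For miR-190a-5p, 6 of the 7 HFepa points lie below all HFoleic points, and for miR-676-3p all 7 HFepa points lie below all reference points. How many of all tested miRNAs separate in these ways was not counted. The HFepa levels entered the choice of the members.

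The lineages were compared under the high-fat diet first, which is the comparison that chose the members. In the series, HFepa vs. HFoleic held 18 of 386 tested miRNAs, 4.66%, that were lower in HFepa at an unadjusted p under 0.05, and 3 of the 4 tested members are among them by choice. In either direction 22 miRNAs (5.7%) had an unadjusted p under 0.05 and 6 (1.55%) one under 0.01, with 3 and 2 members among them. A miRNA was called where its adjusted p was under 0.05 and its log2 fold change beyond 0.25 in either direction, and the quasi-likelihood test of edgeR called 0 of the 386. DESeq2 and limma with quantile normalization also called 0, and limma-voom with quality weights called 1, miR-190a-5p, on the contrast by which it was chosen. The fitted difference was below 0 for all 4 tested members, as it was for 53.4% of all tested miRNAs, and nothing is read from these counts.

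miR-190a-5p, the strand of miR-190a that carries most of its reads, was lower in HFepa. The HFepa libraries held 8.72, 8.14, 10.9, 15.0, 9.97, 10.4 and 11.1 CPM in order from library 16 to 22. The lowest HFoleic library held 12.8 CPM, the median 14.8 CPM and the highest 17.9 CPM. All HFepa libraries except library 19 were thus below every HFoleic library, and library 19 was inside the HFoleic range. The mean was 10.6 ± 2.22 CPM (SD, n = 7) in HFepa and 14.9 ± 1.72 CPM (SD, n = 8) in HFoleic, a fitted log2 fold change of -0.49 (standard error 0.13). These levels rest on between 31 and 63 counts per library in HFepa, and on 59 to 124 per library in HFoleic.

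Reference levels of miR-190a-5p lay between those of the high-fat groups, with 9.23 CPM in the lowest library, a median of 13.8 CPM and 15.5 CPM in the highest. The fitted log2 fold change was 0.16 (standard error 0.12) in HFoleic vs. reference and -0.33 (standard error 0.13) in HFepa vs. reference. Both comparisons share the reference libraries and use the libraries on which the members were chosen, so they are given without a test. In this order of levels, HFoleic and reference overlapped broadly, and 2 of the 7 HFepa libraries were below the lowest reference library, library 5.

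Its paralog with the same seed, miR-190b-5p, did not follow this order. Its hairpin lies on chromosome 3, outside any coding gene, and it had 3 to 15 counts per high-fat library. The HFepa level of 1.73 ± 0.707 CPM (SD, n = 7) stood beside an HFoleic level of 1.42 ± 0.581 CPM (SD, n = 8). In HFepa vs. HFoleic its log2 fold change was 0.27 (standard error 0.31), with overlapping groups. The sum of reads with this seed is set by miR-190a-5p, since miR-190b-5p held 216 counts in the series and miR-190a-5p 1660.

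The second strand of the hairpin, miR-190a-3p, was close to the limit of detection. It had 0 to 8 counts in each reference library, and 1 to 8 in each library of both high-fat groups. The mean was lowest in reference (0.518 ± 0.302 CPM, SD, n = 8), then came HFoleic (0.733 ± 0.446 CPM, SD, n = 8) and HFepa (0.856 ± 0.665 CPM, SD, n = 7), with broad overlap. The 0 counts of reference library 5 allow a level of up to 0.504 CPM, by counting error alone. The difference of mean log2(CPM + 1) was 0.07 (standard error 0.22) in HFepa vs. HFoleic, so the lower level of the 5p strand in HFepa had no counterpart that could be seen at this depth. In summed counts the 5p strand exceeded the 3p strand 24.5-fold in reference, 21.2-fold in HFoleic and 12.6-fold in HFepa mice, whereas the medians over single libraries were 22.6 in HFoleic and 22 in HFepa. In HFepa, 14 of the 25 counts of miR-190a-3p came from libraries 16 and 17, which also held the lowest 2 levels of miR-190a-5p.

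Among the 4 members above the low-count filter, miR-149-5p varied most between mice of a group. The HFoleic libraries held 81.2, 141, 110 and 234 CPM in libraries 9 to 12, 274, 171 and 250.1 CPM in libraries 13 to 15 and 104 CPM in library 23. In HFepa the levels were 55.0, 122, 124 and 167 CPM in libraries 16 to 19 and 179, 71.5 and 56.2 CPM in libraries 20 to 22. The HFepa group thus fell into lower and higher libraries, with 3 of 7 below the lowest HFoleic library and 2 of 7 above the HFoleic median of 156 CPM. The mean was 111 ± 51.2 CPM (SD, n = 7) in HFepa and 171 ± 73.7 CPM (SD, n = 8) in HFoleic, a fitted log2 fold change of -0.62 (standard error 0.29). Within groups, the SD of log2(CPM + 1) was 0.60, above that of 87.8% of the tested miRNAs, whose median was 0.31. For miR-190a-5p and miR-676-3p it was 0.22 and 0.22, so the same log2 difference is a larger multiple of the spread between mice for these strands than for miR-149-5p.

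The other strand of that hairpin, miR-149-3p, which is not a member, was counted 8 times in all 23 libraries, and 16 libraries held 0. Nearly all reads of miR-149 were therefore of the 5p strand, 15060 in the series, and the strands of this hairpin could not be compared between groups.

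miR-676-3p was lower in HFepa with little spread. The HFepa libraries held 81.0, 104, 104, 105, 100.4, 93.1 and 83.1 CPM from library 16 to 22, and none exceeded the HFoleic median of 120 CPM. In HFoleic the lowest library held 80.9 CPM, library 14, and the highest 153 CPM, library 9. Of the 8 HFoleic libraries, 6 were above all HFepa libraries. The mean was 95.9 ± 10.3 CPM (SD, n = 7) in HFepa and 121 ± 23.5 CPM (SD, n = 8) in HFoleic, a fitted log2 fold change of -0.33 (standard error 0.12).

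The 5p strand of the same hairpin, miR-676-5p, had a smaller and more scattered difference. Its level was 25.1 ± 7.05 CPM (SD, n = 7) in HFepa, from 13.9 CPM in library 16 to 35.2 CPM in library 19, and 29.5 ± 4.45 CPM (SD, n = 8) in HFoleic, from 23.9 to 35.2 CPM. Its log2 fold change was -0.23 (standard error 0.16), and 3 of the 7 HFepa libraries were below the lowest HFoleic library. Without HFepa library 16 the log2 fold change was -0.12.

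**Figure D2:**
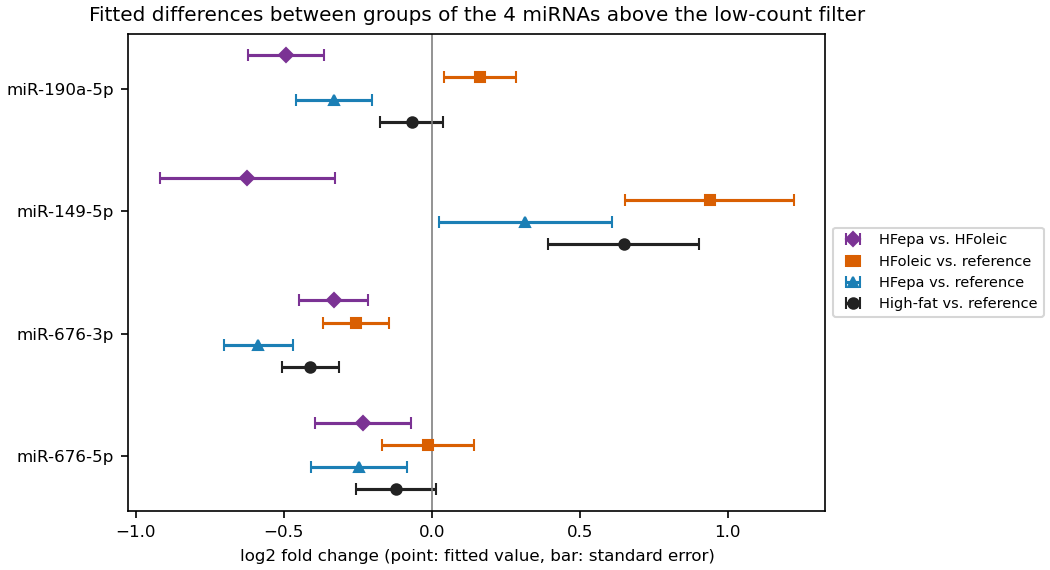
Fitted log2 fold changes are plotted on the horizontal axis for the 4 members above the low-count filter, with bars for the standard error and 1 marker for each comparison. For HFepa vs. HFoleic all 4 points lie left of 0, whereas the points for all high-fat mice vs. reference lie on both sides, from -0.41 for miR-676-3p to 0.65 for miR-149-5p.

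High-fat mice of both lineages were then tested together against the reference mice. The reference mice were all of the control lineage, and 7 of the high-fat mice were of the omega 3 lineage. This contrast is therefore not one of diet alone. The mean of the 15 high-fat mice, weighted by the number of mice per group, was compared with the 8 reference mice, because this contrast is orthogonal to the one that chose the members. The quasi-likelihood test of edgeR called 73 of 386 miRNAs, 18.9%, of which 21 were higher and 52 lower in high-fat mice. Of the 4 tested members 1 was called, miR-676-3p, and 2 had an unadjusted p under 0.05, against 32.4% of all tested miRNAs. Higher calls made up 5.44% and lower calls 13.5% of the tested miRNAs. The median log2 fold change was -0.09 over the 4 members and -0.02 over all tested miRNAs.

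miR-676-3p was lower in the high-fat mice than in the reference mice. The reference libraries held 134, 133, 175, 128, 166, 156, 121 and 138 CPM from library 1 to 8. All 7 HFepa libraries and 4 of the 8 HFoleic libraries were below the lowest of these. The reference mean of 144 ± 19.6 CPM (SD, n = 8) stood against a mean of 109 CPM over the 15 high-fat mice, which ranged from 80.9 to 153 CPM. The fitted log2 fold change was -0.41 (standard error 0.10), or 0.752-fold, with an adjusted p of 0.00389 (quasi-likelihood test of edgeR, Benjamini-Hochberg). Given side by side, the log2 fold change was -0.26 (standard error 0.11) in HFoleic vs. reference and -0.59 (standard error 0.12) in HFepa vs. reference. The group means thus ran from reference over HFoleic to HFepa, with overlap between neighbours. The step from HFoleic to HFepa is the one on which the members were chosen, so this order is given without a test. How many of all tested miRNAs had every HFepa library below the reference libraries was not counted. The call held in all 23 fits that each left out 1 library, with log2 fold changes from -0.45 to -0.36, and without reference libraries 3, 4 and 5 the value was -0.36 (adjusted p = 0.0447 from the same edgeR test). The call was lost with quantile normalization, which the study names for its miRNA data, with -0.27 and an adjusted p of 0.12 from limma. It was also lost with a term for library number, described further on.

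Reference library 3, which held the highest sums of miRNAs of leukocytes, biliary epithelium and stellate cells, also had the highest level of miR-676-3p, 175 CPM, and of miR-676-5p, 39.0 CPM. In bulk liver, fewer cells of a type and less RNA per cell cannot be told apart. The 5 leukocyte miRNAs summed to 1332 to 2923 CPM per reference library, 1191 to 2000 CPM per HFoleic library and 1267 to 1928 CPM per HFepa library. Of these 5, the called one was miR-150-5p, abundant in lymphocytes, with a log2 fold change of -1.15 (adjusted p = 0.00111 by edgeR). The 5 stellate cell and fibroblast miRNAs summed to 23448 to 42501 CPM, 19867 to 28553 CPM and 23477 to 30356 CPM in the same order of groups, and the 5 biliary miRNAs to 151 to 1094 CPM, 157 to 333 CPM and 191 to 263 CPM. None of these markers was at 0 in all libraries. The part of other cell types in the level of miR-676-3p was not tested.

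The strands of miR-676 differed in their fitted change. Reference mice held 29.8 ± 5.87 CPM of miR-676-5p (SD, n = 8), from 22.7 to 39.0 CPM, and high-fat mice 27.5 ± 6.03 CPM (SD, n = 15). The fitted log2 fold change was -0.12 (standard error 0.14, adjusted p = 0.555 by edgeR), with a 95% confidence interval from -0.40 to 0.16. With 1 library left out it was between -0.16 and -0.055, the latter without reference library 3, and it was not called in any of these fits. The ratio of the strands does not depend on the normalization between libraries. It was between 4.26 and 5.87 counts of the 3p strand per count of the 5p strand in reference libraries, with a median of 4.66. In HFoleic it was between 3.38 and 5.20 with a median of 4.01, and in HFepa between 2.99 and 5.84 with a median of 3.82. The mean log2 ratio was lower in high-fat than in reference mice with a difference of -0.28, or 0.821-fold (two-sided exact permutation test, p = 0.0218). This test was chosen after the values were seen, and its p lay between 0.00626 and 0.0512 with 1 library left out, the highest without reference library 2. Without reference libraries 3, 4 and 5 the difference was -0.37 (two-sided exact permutation test, p = 0.0169). The groups overlapped, and HFepa libraries 16 and 17, with ratios of 5.84 and 5.40, lay among the highest reference values.

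**Figure D3:**
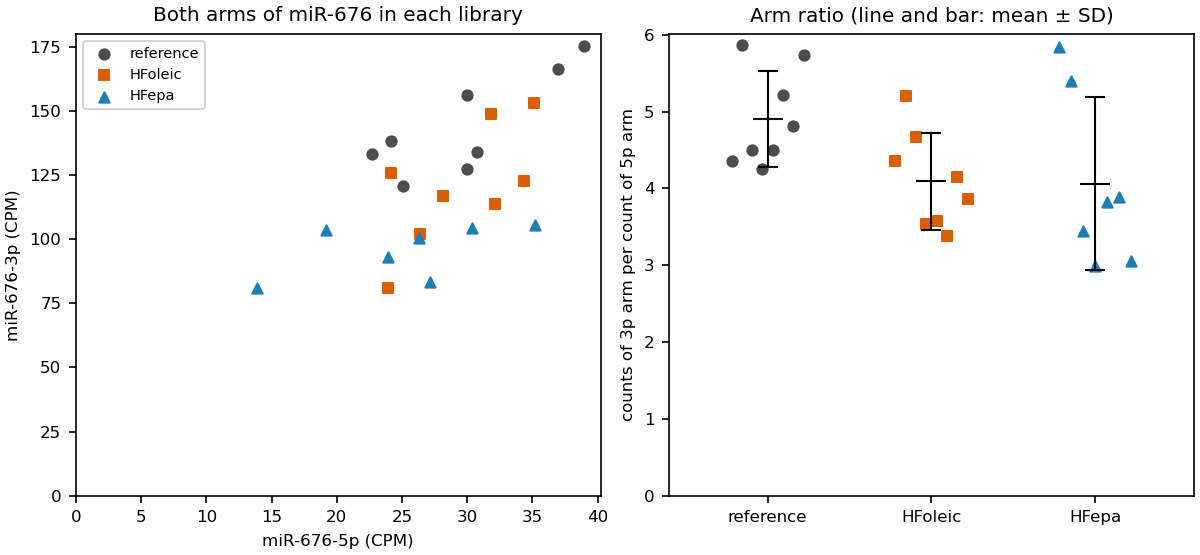
The left panel plots the CPM of miR-676-3p against that of miR-676-5p, 1 point per library. The right panel plots the counts of the 3p strand per count of the 5p strand by group, with the mean ± SD (n = 8, 8 and 7). All HFepa points lie below all reference points on the axis of the 3p strand, a separation not counted over all tested miRNAs. In the strand ratio, 5 of the 7 HFepa points lie below the lowest reference ratio of 4.26. The 5 HFoleic libraries numbered 12 to 23 also lie below it, from 3.38 to 4.15. The HFepa levels entered the choice of the members.

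For miR-149-5p the difference between high-fat and reference mice was in the other direction and did not pass the adjusted threshold. The lowest reference library, library 4, held 52.3 CPM and the highest, library 8, 141 CPM, with a median of 80.7 CPM and a mean of 89.0 ± 26.5 CPM (SD, n = 8). High-fat mice held 143 ± 69.3 CPM (SD, n = 15), and 7 of these 15 libraries, 5 of HFoleic and 2 of HFepa, were above the highest reference library. The fitted log2 fold change was 0.65 (standard error 0.25), with an unadjusted p of 0.0179 and an adjusted p of 0.0679 by edgeR. Given side by side, it was 0.94 (standard error 0.28) in HFoleic vs. reference and 0.32 (standard error 0.29) in HFepa vs. reference. With single libraries left out, the adjusted p fell under the threshold 4 times of 23, namely without reference library 8, HFoleic library 9 or HFepa library 16 or 22, with log2 fold changes from 0.68 to 0.80. Without reference libraries 3, 4 and 5 it was 0.44 (adjusted p = 0.392 by edgeR). With the term for library number, described further on, the direction turned to -0.10. That value also contains the lineage difference that chose the members, so it is not an independent check.

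For miR-190a-5p no difference between high-fat and reference mice was detectable, with 12.9 ± 2.93 CPM (SD, n = 15) against 13.3 ± 2.08 CPM (SD, n = 8). Its log2 fold change was -0.07 (standard error 0.11, adjusted p = 0.698 from the same edgeR test), with a 95% confidence interval from -0.29 to 0.15. For miR-190a-3p the difference of mean log2(CPM + 1) was 0.21 (two-sided exact permutation test, p = 0.207). For miR-190b-5p the fitted log2 fold change was -0.33 (standard error 0.24, adjusted p = 0.367 from the same edgeR test).

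The levels were then set against the library number, because HFoleic libraries 9 to 11 are numbered next to the reference libraries and the other 5 HFoleic libraries next to or after the HFepa libraries. The labels do not name these numbers as a batch. For miR-149-5p, HFoleic libraries 9 to 11 held between 81.2 and 141 CPM, close to the reference range of 52.3 to 141 CPM, and the other 5 between 104 and 274 CPM. For miR-676-3p, libraries 9 to 11 held between 126 and 153 CPM, inside the reference range of 121 to 175 CPM, and the other 5 between 80.9 and 123 CPM. The strand ratio of miR-676 was 4.36 to 5.20 in libraries 9 to 11 and 3.38 to 4.15 in the other 5. Levels of miR-190a-5p did not divide in this way, with 12.8 to 17.9 CPM in libraries 9 to 11 and 12.9 to 16.2 CPM in the other 5.

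Where the fit also held a term that separated numbers 1 to 11 from 12 to 23, the log2 fold change between high-fat and reference mice was -0.09 for miR-676-3p (adjusted p = 0.913) and -0.10 for miR-149-5p (adjusted p = 0.974, both by edgeR), so the call of miR-676-3p was lost and the direction of miR-149-5p turned. No miRNA of the 386 was called by edgeR in that fit, and 32 had an unadjusted p under 0.05. In HFepa vs. HFoleic, the log2 fold change with this term was -0.46 for miR-190a-5p, -0.90 for miR-149-5p, -0.16 for miR-676-3p and -0.21 for miR-676-5p. With HFoleic libraries 9 to 11 left out instead, so that all remaining high-fat libraries are numbered 12 to 23, the values were -0.46, -0.90, -0.16 and -0.21. For this comparison both settings set HFepa against the same HFoleic libraries, so their agreement is built in. The difference of miR-676-3p between the lineages was thus smaller among these libraries, and that of miR-149-5p larger. All HFepa libraries have a number above 11 and all reference libraries one below 12. With the term, the high-fat values therefore combine HFoleic libraries 9 to 11 against reference with HFepa against the other 5 HFoleic libraries. The latter is part of the comparison that chose the members, so these values are not independent of that choice. For miR-149-5p, HFoleic libraries 9 to 11 averaged 111 CPM against 89.0 CPM in reference, so its turned direction comes with the lineage difference. For miR-676-3p, HFoleic libraries 9 to 11 averaged 143 ± 14.7 CPM (SD, n = 3) against 144 ± 19.6 CPM (SD, n = 8) in reference. Outside HFoleic libraries 9 to 11, diet and library number cannot be told apart.

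**Figure D4:**
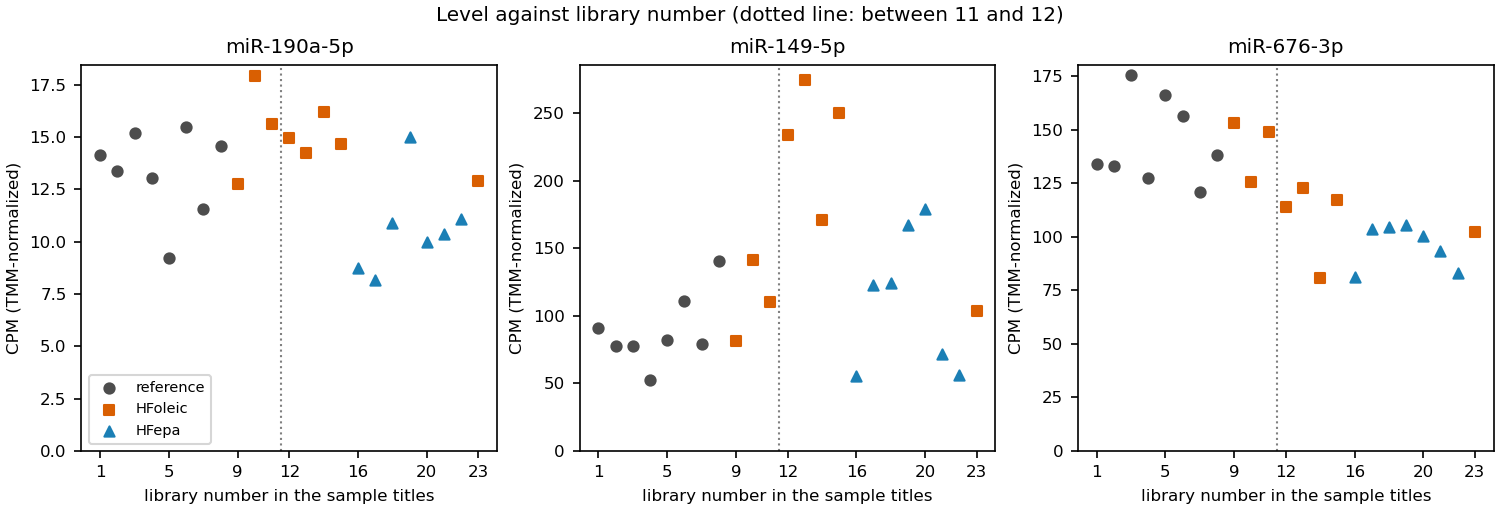
CPM is plotted against the library number of the sample titles for 3 members, with 1 point per library and a dotted line between libraries 11 and 12. HFoleic libraries 9 to 11 lie within or close to the reference points for miR-149-5p and miR-676-3p, whereas for miR-190a-5p HFoleic libraries on both sides of the line lie at a similar height.

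The members were also compared with each other across mice, on deviations of log2(CPM + 1) from the group means, which do not use the differences between groups. Of the 10 pairs of members, 1 was correlated after adjustment, the strands of miR-676 (Pearson r = 0.58, Spearman rho = 0.62, n = 23, permutation within groups, adjusted p = 0.00880 for r and 0.0243 for rho over the 10 pairs). By group its r was 0.77 for reference, 0.68 for HFoleic and 0.58 for HFepa mice, and 0.56 without the 2 libraries farthest from the median of miR-676-3p. Among miR-190a-5p, miR-149-5p and miR-676-3p, r was 0.02 for miR-190a-5p with miR-676-3p, 0.09 for miR-149-5p with miR-676-3p and 0.30 for miR-190a-5p with miR-149-5p. Their permutation p-values were 0.909, 0.693 and 0.192 (adjusted p = 0.909, 0.790 and 0.480). The pairs across hairpins with the largest r were those of miR-190a-3p, with -0.50 for miR-676-5p and -0.43 for miR-676-3p. Their permutation p-values were 0.0331 and 0.0390 (adjusted p = 0.130 for both). The r of miR-149-5p with miR-676-3p differed in sign between groups, with 0.91 in HFepa, -0.36 in HFoleic and 0.20 in the reference group, and these differences were not tested. The strands of miR-190a had an r of -0.09 (permutation p = 0.711, adjusted p = 0.790), with at most 8 counts of the 3p strand in any library. The lowest adjusted p among the 9 pairs other than the strands of miR-676 was 0.130.

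As a description, the tested miRNAs outside the members with the most similar deviations over the 23 libraries were listed. They were miR-802-3p (r = 0.55), miR-582-3p (r = 0.54) and miR-802-5p (r = 0.53) for miR-190a-5p, so both strands of the miR-802 hairpin appeared. For miR-149-5p they were miR-1249-3p (r = 0.71), miR-3068-3p (r = 0.68) and miR-3084-3p (r = 0.68), and for miR-676-3p miR-27b-5p (r = 0.70), miR-150-5p (r = 0.64) and miR-7688-5p (r = 0.63). For miR-676-5p they were miR-218-5p (r = 0.58), miR-212-3p (r = 0.58) and miR-872-5p (r = 0.54). These values are the highest among all tested miRNAs and come from libraries that share depth and composition.

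**Figure D5:**
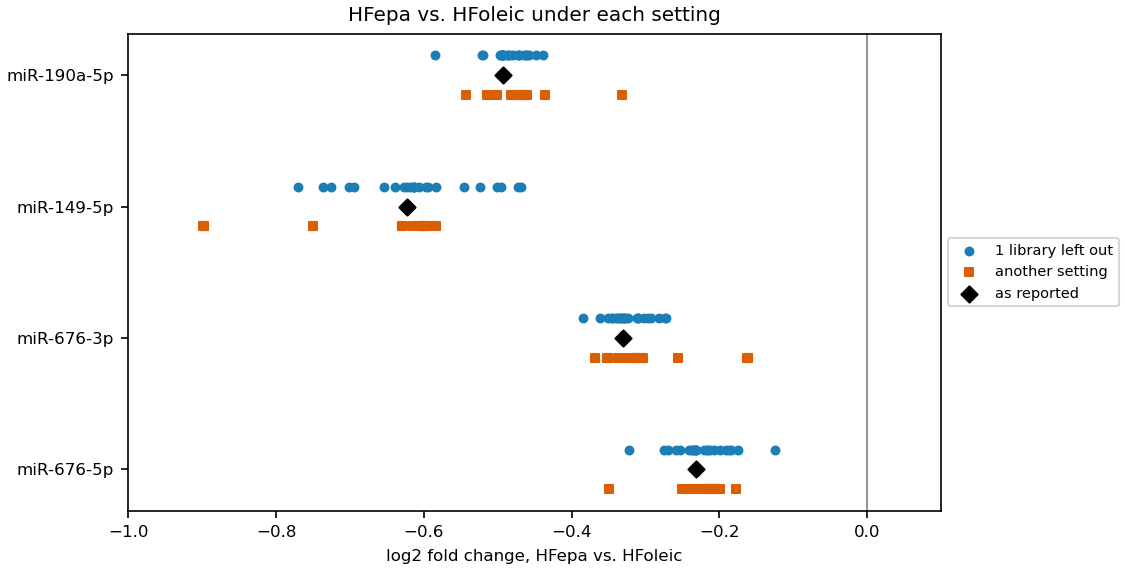
The fitted log2 fold change in HFepa vs. HFoleic is plotted for the 4 members above the low-count filter, with a diamond for the value as reported, circles for fits without 1 library and squares for other settings. All points lie below 0, from -0.90 for miR-149-5p to -0.12 for miR-676-5p, and the direction is the one by which the members were chosen.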

How the data were processed

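Small RNA of liver was sequenced with 1 library per mouse. The authors removed adapters with FASTX-Toolkit, mapped the reads with Bowtie in ncPRO-seq, annotated them against miRBase and deposited raw read counts per mature miRNA. The methods name the genome as GRCm38.p6 and as mm9, and the labels name mm10, which is GRCm38. Deposited columns of counts divided by size factors, group means and the authors' fold changes and p-values were not used. Groups follow the group label. The members, gene lists and tests were chosen with earlier results of these data known. Counts were filtered with filterByExpr by group, normalized by TMM and fitted over 3 groups with edgeR 4.0.16 in R 4.3.3. The calling thresholds were 0.05 for the adjusted p and 0.25 for the log2 fold change, the latter being the study's fold threshold read as log2. The study names DEGseq, which takes reads as the error; edgeR takes mice. The standard error is the fold change divided by the square root of F. For miR-190a-3p, below the filter, log2(CPM + 1) was tested by exact permutation. Correlations used 100000 permutations within groups. Intervals and floors cover counting error or the spread between mice only. Named were the members, miR-149-3p, the miR-190b strands, seed mates, the 3 miRNAs most like each tested member by r, and the markers of 8 cell types or tissues, whose results stand in the report. Alternatives were DESeq2 1.42.0, limma 3.58.1 (voom with quality weights, quantile normalization), other scaling factors, filters and weights, thinned libraries, a library number term and left-out libraries. The tests were checked on simulated counts. Sequences are from RefSeq (GRCm38.p6) and host genes from GENCODE M21 on the same build.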

Additional observations from a re-analysis of the deposited data

Results flagged for a closer look

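Of the 15 combinations of member and group, 1 held a library flagged as apart from the others, just past the cut-off. HFepa library 19 had 15.0 CPM of miR-190a-5p, whereas the other 6 HFepa libraries held between 8.14 and 11.1 CPM. Its gap to the nearest library was 0.5685 of the group's range, against a cut-off of 0.568 for 7 libraries. Chance flags about 1 in 20 groups, and 1 flag among 15 is close to that rate. Without library 19 the log2 fold change of miR-190a-5p in HFepa vs. HFoleic was -0.59. The same library held the highest HFepa levels of miR-676-3p, 105 CPM, and of miR-676-5p, 35.2 CPM, and had the smallest total in the series, 3725432 counts.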

How the results depend on the processing

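No paired analysis was possible because the labels number the libraries once across the series and the groups share no replicate numbers. For all high-fat vs. reference mice, 73 miRNAs were called as reported, 21 higher and 52 lower, against 24 with quantile normalization and limma, 17 higher and 7 lower, 48 with limma-voom, 0 with the library number term and 32 without reference libraries 3, 4 and 5, an alternative chosen after the data were seen. With 1 library left out the number called was between 42, without reference library 5, and 76. For miR-676-3p the call was lost with quantile normalization (-0.27) and with the library number term (-0.090), and it held under the other 11 settings. For miR-149-5p the log2 fold change was between 0.57 and 0.80 with 1 library left out, 0.69 and called without HFoleic libraries 9 to 11, and -0.10 with the library number term. High-fat values with that term include the lineage difference that chose the members. Not called but turned in sign were miR-190a-5p with quantile normalization (0.011) and miR-676-5p without reference libraries 3, 4 and 5 (0.014). With 1 library left out, miR-190a-5p was between -0.14, without reference library 5, and -0.018, without reference library 8. In HFepa vs. HFoleic, the 4 tested members stayed below 0 in every fit run. That comparison chose the members, and the fits share most libraries, so the constant sign is not an independent check. With libraries thinned to 3725432 counts the log2 fold change of miR-190a-5p was -0.33, and counts of 31 to 63 per HFepa library limit its precision. The sign of miR-190a-3p in that comparison, 0.07 as reported, was -0.07 without HFepa library 17. For miR-190a-3p, quantile normalization, limma-voom, the stricter filter, equal weights and the library number term gave no value.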
